A study of Gallus gallus with 21 samples.

Results

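The genes described here encode the subunits of voltage-gated calcium and sodium channels in the chicken retina. They are the rows of the deposited table whose gene symbol begins with CACNA, CACNB or CACNG, or with SCN and a digit. The rule reads names and no measured value, but it was chosen with earlier results of these data known. The rule found 31 of 18631 listed genes, 20 of calcium channels and 11 of sodium channels, and 25 of them had the mean of at least 1 CPM (a gene's reads scaled to a common library total) that was required for a test.

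Voltage-gated calcium channels open when a membrane depolarises and let in the calcium that releases transmitter. Each is built on a pore-forming alpha-1 subunit, which carries the channel's class (L, N, R or T type among others). In high-voltage-activated classes such as L, N and R, an intracellular beta subunit and an extracellular alpha-2-delta subunit help bring the pore to the membrane and set its gating, while T-type pores do not need them. Photoreceptors and bipolar cells of the retina release glutamate continuously at ribbon synapses through L-type channels. Voltage-gated sodium channels have a single large pore-forming subunit with small beta subunits beside it, and carry the action potentials of ganglion cells and of some amacrine cells. Genes of the CACNG family are named after a muscle calcium channel subunit, but those listed here encode partners of AMPA-type glutamate receptors in mammals.

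All groups were retinas of wild-type White Leghorn chickens whose eyes had carried a lens of -10 dioptres, which places the image behind the retina and leads a growing eye to lengthen. Lenses were put on at 3 days of age and worn for 1, 3 or 6 days, and 7 libraries of total RNA without ribosomal RNA were made for each duration. Every library came from a lens-wearing bird, and longer wear went with greater age, so the comparisons below are between durations and cannot tell lens wear from age. Which libraries came from the same bird is not stated in the labels, so p-values measure the spread between libraries.

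The libraries held an estimated 30800000 to 49300000 reads, of which 9940000 to 15300000 fell on listed genes. A single read was worth 0.0203 to 0.0324 CPM, so that 1 CPM stood for about 31 to 49 reads. Markers of photoreceptors, bipolar, amacrine and horizontal, ganglion and Muller cells were present. A mean of 1 CPM was reached by 1 of 7 listed pigment epithelium markers and 0 of 6 listed muscle markers. It was also reached by 3 of 5 listed oligodendrocyte markers and 4 of 5 listed blood and vessel markers. HINTW, a transcript of the female-specific W chromosome, was above 10 CPM in 4, 1 and 5 libraries of days 1, 3 and 6. None of the 29 subunit genes that could be placed on a numbered chromosome lay on Z or W, and with the HINTW level in the fit limma called 0 of the 25 tested subunit genes for it, against 5.36% of all tested genes (3 of 25 had an unadjusted p under 0.05). Sample codes in the labels carry a number of unstated meaning. Between higher and lower numbers within day 1 limma called 2 of the 25 genes, CACNG5 and CACNA1I, against 8.72% of all tested genes. Within days 3 and 6 limma called 0 of all tested genes for that split. At an unadjusted p under 0.05 there were 7 of the 25 subunit genes on day 1, 3 on day 3 and 2 on day 6.

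Over the 3 durations, 6 of the 25 tested subunit genes differed by an F test in limma at an adjusted p under 0.05 (Benjamini-Hochberg), against 29.7% of all 11072 tested genes. Among them were CACNA2D4, CACNA1H and CACNG2, which also passed after the median-of-ratios scaling described below, and CACNB2 and SCN8A, which did not (adjusted p = 0.0645 and 0.233). Between 3 and 1 days of wear 1 gene rose, CACNA2D4, and 0 fell by limma, where 3.31% of all tested genes were called (1.67% higher, 1.63% lower). At an unadjusted p under 0.05 there were 1 higher and 2 lower. Between 6 and 3 days 6 rose and 1 fell, where 22.8% of all tested genes were called (19.4% higher, 3.44% lower). Between 6 and 1 days 2 rose and 1 fell, where 24.3% were called (19.8% higher, 4.46% lower). As shares of the 25 genes these counts were 4%, 28% and 12% in the 3 comparisons and 24% in the F test, and whether they differ from the shares over all genes was not tested. The 3 comparisons share libraries and are not independent of each other. The count for days 6 and 3 was 4 without day 3 replicate 2 or without day 6 replicate 4, 6 or 7, and that for days 6 and 1 was 1 without day 1 replicate 1 or without day 6 replicate 3 or 7.

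The scaling of the libraries bears on these counts. By CPM the median change of all tested genes was 0.08 on the log2 scale between 6 and 3 days and 0.08 between 6 and 1 days, and after median-of-ratios scaling, which sets the typical gene equal between libraries, both medians were 0.01. The medians over the 25 subunit genes were 0.11 and -0.03 by CPM and 0.05 and -0.10 after that scaling. After it 1 subunit gene rose and 0 fell between 3 and 1 days, where 3.93% of all tested genes were called. Between 6 and 3 days 1 rose and 5 fell, where 16.4% were called (8.54% higher, 7.88% lower). Between 6 and 1 days 1 rose and 6 fell, where 17.4% were called (8.47% higher, 8.93% lower), and the F test called 9, against 23.1%. As shares of the 25 genes these were 4%, 24%, 28% and 36%, so that between 6 and 1 days and in the F test the share lay below that of all genes by CPM and above it after median-of-ratios scaling. The F test then also called CACNA2D1, CACNA2D3, CACNB4, CACNG4, SCN2A and SCN9A (adjusted p = 0.0240, 0.0245, 0.0209, 0.0349, 0.00584 and 0.0336). Signs differed between the scalings for 4 genes, all between 6 and 1 days and without a call by either: CACNA1D, CACNA1G, CACNA1I and CACNB2. Pairwise calls that ended or began with the scaling are given with each subunit gene described, and not for every partner gene.

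**Figure D1:**
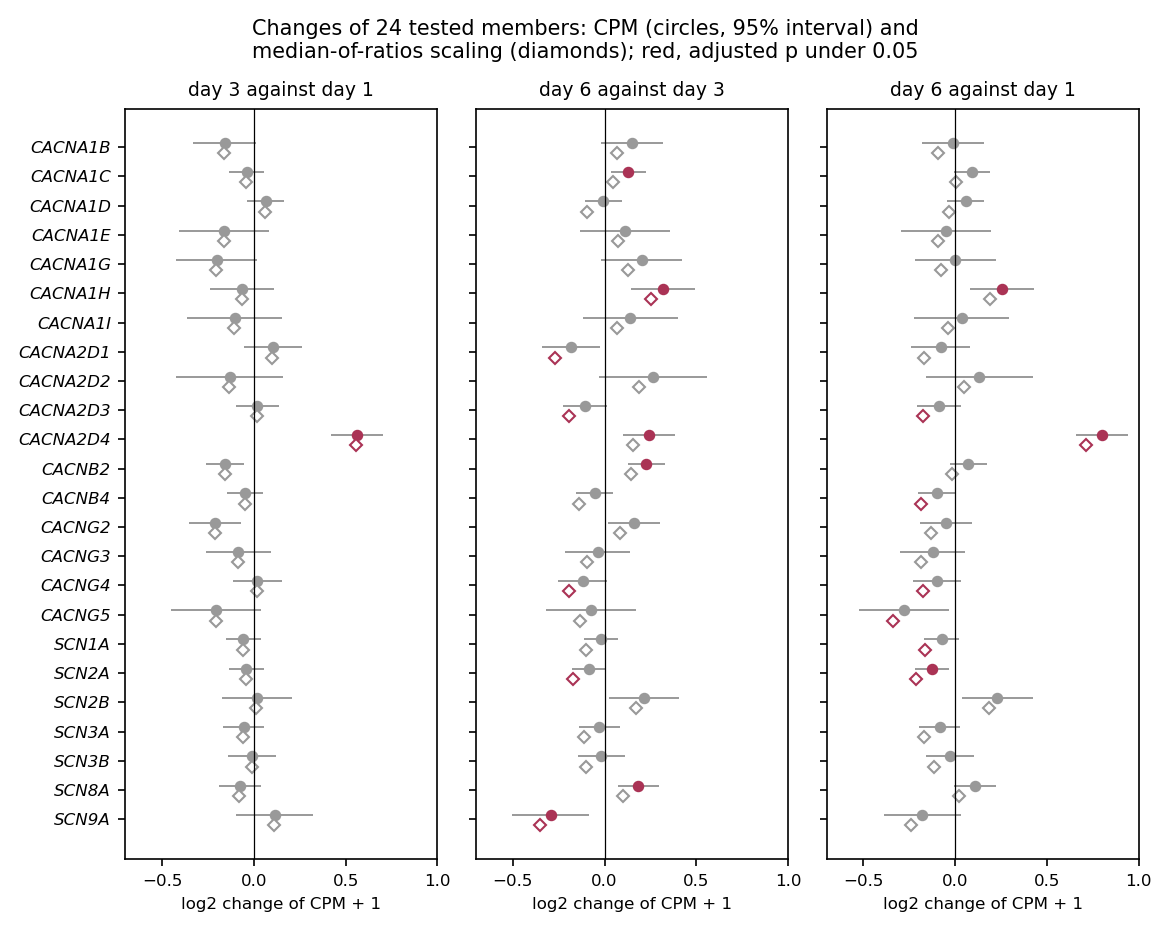
Log2 changes of CPM + 1 for 24 of the 25 tested subunit genes in the 3 comparisons, with circles for CPM and their 95% intervals, diamonds for median-of-ratios scaling, and red for an adjusted p under 0.05. CACNA2D4 lies far to the right in the panels of days 3 and 6 against day 1, and in the panels with day 6 most diamonds lie left of their circles.

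Among the alpha-2-delta genes, CACNA2D4 rose with each step of lens wear by CPM. It encodes the alpha-2-delta subunit of the photoreceptor calcium channel, and its loss in mice and humans impairs transmission from photoreceptors. The gene lies on the minus strand of chromosome 1 at 60966651 to 61086781 (GRCg6a, positions as listed in the table). Its lowest, median and highest libraries stood at 58.1, 60.9 and 75.5 CPM on day 1, at 84.6, 95.1 and 103 CPM on day 3, and at 94.4, 110 and 128 CPM on day 6. All day 3 and day 6 libraries were above all day 1 libraries, while days 3 and 6 overlapped. Means were 63.2 ± 5.97, 93.6 ± 6.81 and 111 ± 10.7 CPM (SD, n = 7 each).

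Between 3 and 1 days the change of CACNA2D4 was 0.56 ± 0.07 (log2 of CPM + 1 ± SE, adjusted p = 8.86e-05), a fold of 1.47. Of the 25 subunit genes it was the one whose day 3 libraries all lay above those of day 1, which held for 0.876% of all tested genes. No subunit gene had all libraries of a later day below those of an earlier one, which held for 0.668% of tested genes between 3 and 1 days, 0.714% between 6 and 3 days and 0.822% between 6 and 1 days. Between 6 and 1 days the change was 0.80 ± 0.07 (adjusted p = 7.46e-07), a fold of 1.74, and its p ranked 1 among 11072 tested genes there and in the F test over days (adjusted p = 2.53e-06). It was again the one subunit gene with day 6 libraries all above those of day 1, against 5.38% of all tested genes. Between 6 and 3 days the change was 0.24 ± 0.07 (adjusted p = 0.0151), with 7 of 7 day 6 libraries above the day 3 mean. The step between 6 and 3 days was not called after median-of-ratios scaling (0.15, adjusted p = 0.0879), while the other steps were 0.56 and 0.71 (adjusted p = 2.21e-05 and 9.99e-07). All 3 calls held on leaving out any of the 21 libraries, with adjusted p up to 0.0371. Against day 1 libraries of lower or higher code numbers alone, the change of CACNA2D4 was 0.60 and 0.50 on day 3 and 0.84 and 0.74 on day 6.

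**Figure D2:**
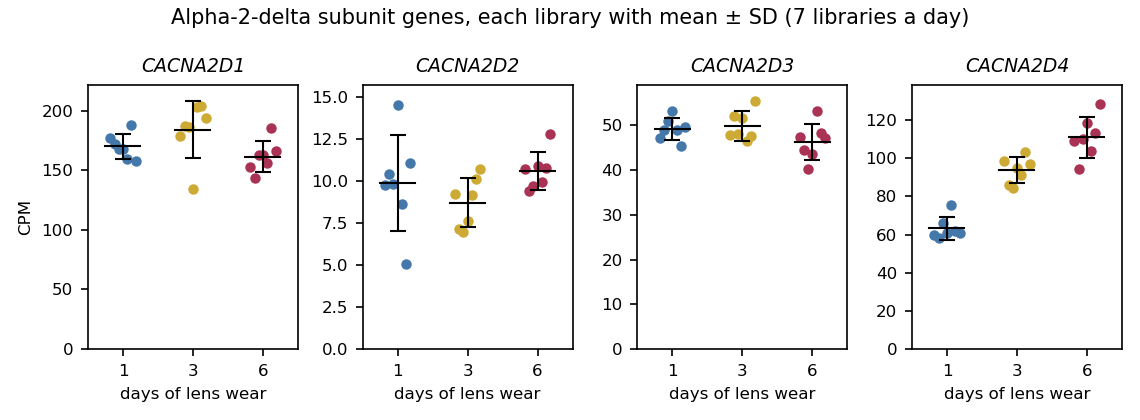
CPM of the 4 alpha-2-delta genes in each library (points) with the mean and SD of 7 libraries (lines), by days of lens wear. CACNA2D4 lies at 58.1 to 75.5 CPM on day 1, 84.6 to 103 CPM on day 3 and 94.4 to 128 CPM on day 6, while the libraries of the other genes overlap between days.

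Overlapping genes could add reads to such values, and 3 listed genes lie within or across CACNA2D4 on the opposite strand, ADIPOR2, LRTM2 and CHUNK-1. The libraries were made with a stranded kit, but the sources used here do not say whether the counting used strand, so reads could have been shared. The sum of the 3 genes averaged 21.4 ± 2.76, 18.3 ± 2.19 and 22.9 ± 1.80 CPM (SD, n = 7) on days 1, 3 and 6. CACNA2D4 itself differed in mean by 30.4 CPM between 3 and 1 days, by 17.4 CPM between 6 and 3 days and by 47.7 CPM between 6 and 1 days. Between 6 and 3 days ADIPOR2 and LRTM2 rose (0.28 and 0.34, adjusted p = 0.0163 and 0.0152), between 3 and 1 days LRTM2 fell (-0.49, 0.00484), and between 6 and 1 days ADIPOR2 rose (0.28, 0.0139). The part of these genes in the values of CACNA2D4 was not tested.

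Other alpha-2-delta genes did not follow CACNA2D4. CACNA2D1, whose product is widely expressed and binds gabapentin, had 134, 187 and 204 CPM in the lowest, median and highest day 3 library, between 158, 168 and 188 CPM on day 1 and 143, 162 and 185 CPM on day 6. Its changes were 0.10 ± 0.08 between 3 and 1 days and -0.18 ± 0.08 between 6 and 3 days (adjusted p = 0.505 and 0.0877). The second was called without day 3 replicate 4, the low library of 134 CPM (-0.26, adjusted p = 0.00461), and after median-of-ratios scaling (-0.27, 0.0141). CACNA2D3, an alpha-2-delta subunit of neurons, ranged from 40.2 to 55.6 CPM over all libraries. It was not called by CPM and was lower after median-of-ratios scaling on day 6 than on day 3 (-0.19, adjusted p = 0.0234) and on day 1 (-0.18, 0.0344). CACNA2D2 varied most of the 4 within days, from 5.05 to 14.5 CPM on day 1, and was called in 0 of 3 comparisons by either scaling.

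Ratios between genes within a library do not depend on the scaling. They were not among the planned results and are given as descriptions of CPM ratios between days. They do not describe molecule numbers, since gene lengths were not used. Genes called by limma stand in them, so they are no separate support for those calls. CACNA2D4 over the sum of the other 3 alpha-2-delta genes had a lowest, median and highest value of 0.251, 0.259 and 0.348 on day 1, of 0.348, 0.374 and 0.491 on day 3 and of 0.463, 0.518 and 0.568 on day 6. The day 1 and day 6 libraries were apart, and day 3 began where day 1 ended and overlapped day 6. CACNA2D4 over CACNA1D, an L-type pore gene, showed the same order, with medians of 0.274, 0.386 and 0.470 on days 1, 3 and 6. Day 1 (0.252 to 0.323) did not overlap day 3 (0.358 to 0.492) or day 6 (0.410 to 0.570).

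Photoreceptor markers differed among themselves over the same days. Of 11 tested, 1 rose and 1 fell between 3 and 1 days, 6 rose and 1 fell between 6 and 3 days, and 5 rose and 2 fell between 6 and 1 days, where 3.31%, 22.8% and 24.3% of all tested genes were called. After median-of-ratios scaling the counts were 1 and 2, 4 and 1, and 4 and 2, beside 3.93%, 16.4% and 17.4%. The marker that fell between 3 and 1 days by CPM was the cone channel gene CNGA3 (-0.83, adjusted p = 0.000312). Median changes of the 11 tested markers by CPM were -0.03, 0.35 and 0.19 in the 3 comparisons in the same order. Over all tested genes they were -0.00, 0.08 and 0.08. After median-of-ratios scaling the marker medians were -0.04, 0.27 and 0.14, beside -0.00, 0.01 and 0.01 over all tested genes. The summed level of the 12 listed markers was 1260 to 1839 CPM on day 1, 1135 to 1777 CPM on day 3 and 1483 to 2139 CPM on day 6, and 0 of the 12 stood at 0 in every library. Their part in the rise of CACNA2D4 was not tested, and in whole retina more cells of a type and more RNA per cell cannot be told apart.

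Of the L-type pore genes, CACNA1D was level over the days and CACNA1C rose slightly between 6 and 3 days by CPM. CACNA1D, whose channel serves ribbon synapses of hair cells and many retinal neurons, stood at 205, 222 and 242 CPM in the lowest, median and highest day 1 library, at 209, 236 and 254 CPM on day 3 and at 225, 232 and 247 CPM on day 6. The days overlapped throughout, and the 95% intervals of its 3 changes all lay within 0.17 of 0 on the log2 scale. CACNA1C, the L-type gene best known from heart and brain, stood at 67.5, 74.1 and 76.4 CPM on day 6, against 64.7, 65.5 and 71.1 CPM on day 3. It rose by CPM (0.13 ± 0.05, adjusted p = 0.0453), but not after median-of-ratios scaling (0.05, 0.505), with HINTW or the code letter in the fit (0.139 and 0.0576) or on leaving out any 1 of 13 libraries (adjusted p up to 0.0852). CACNA1C begins 45.8 kb from CACNA2D4 on the other strand, with no listed gene lying wholly between them. Its change between 6 and 1 days was 0.09 ± 0.05 (adjusted p = 0.150). Against the day 1 libraries of higher code numbers alone that change was called (0.18, adjusted p = 0.035). Whether the neighbours share a cause of change was not tested. DCP1B, which overlaps CACNA1C on the opposite strand, averaged 19.8, 19.7 and 21.6 CPM on days 1, 3 and 6. CACNA1S, the L-type gene of skeletal muscle, was not tested and reached 0.822 CPM at most.

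Of the genes for low-threshold T-type pores, which open near the resting potential, CACNA1H rose. It had 3.01, 3.46 and 4.36 CPM in the lowest, median and highest day 6 library, against 2.42, 2.60 and 2.99 CPM on day 3, so that the groups did not overlap. The change was 0.32 ± 0.08 (adjusted p = 0.00973) and 0.25 after median-of-ratios scaling (0.0283), the one rise among the 25 genes that held between 6 and 3 days by both scalings. Between 6 and 1 days it rose by 0.26 ± 0.08 (adjusted p = 0.0295), with day 1 libraries at 2.03 to 3.74 CPM in overlap with those of day 6. That call ended after median-of-ratios scaling (0.19, 0.0944), against the day 1 libraries of lower code numbers alone (0.17, 0.179) and on leaving out any 1 of 5 libraries (adjusted p up to 0.0689).

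The other T-type genes did not pass. CACNA1G ranged from 3.87 to 8.14 CPM and CACNA1I from 4.23 to 10.1 CPM over all libraries, and both were called in 0 of 3 comparisons. CACNA1I differed within day 1, where it averaged 5.17 CPM in the 3 libraries of higher code numbers and 7.84 CPM in the 4 of lower numbers (log2 difference -0.51, adjusted p = 0.0293). The N-type gene CACNA1B, whose channel drives release at many conventional synapses, ranged from 14.2 to 22.9 CPM, and its change between 3 and 1 days was -0.16 ± 0.08 (adjusted p = 0.307). The R-type gene CACNA1E ranged from 0.524 to 1.73 CPM, close to the limit for a test. The sum of the 8 listed alpha-1 genes was 314 to 346 CPM on day 1, 307 to 360 CPM on day 3 and 334 to 354 CPM on day 6. No row of the deposited table was named CACNA1A or CACNA1F.

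CACNB2 encodes the beta subunit that the photoreceptor synapse requires in mouse. It stood at 194, 209 and 233 CPM in the lowest, median and highest day 1 library, at 173, 186 and 208 CPM on day 3 and at 209, 218 and 228 CPM on day 6. Every day 6 library was above every day 3 library, as in 3 of the 25 subunit genes and 5.05% of all tested genes, though the gap between 209 and 208 CPM was narrow. CACNB2 rose between 6 and 3 days by CPM (0.23 ± 0.05, adjusted p = 0.00279), but did not pass after median-of-ratios scaling (0.14, 0.0824). Days 1 and 3 overlapped, and their change of -0.16 ± 0.05 did not pass (adjusted p = 0.0813, and 0.114 after that scaling), though it passed without day 3 replicate 7 (-0.18, 0.0477) and with a variance trend (0.0423). CACNB4, the beta subunit whose loss causes epilepsy in mice, ranged from 37.6 to 45.8 CPM and was not called by CPM with all libraries. By CPM it was called lower on day 6 against the day 1 libraries of lower code numbers alone (-0.16, adjusted p = 0.0298). After median-of-ratios scaling it was lower on day 6 than on day 1 (-0.19, adjusted p = 0.0123). CACNB2 over CACNB4 in the same library was 4.42 to 5.72 on day 1, 4.24 to 4.87 on day 3 and 4.65 to 5.89 on day 6, and the days overlapped. CACNB1, the beta subunit of skeletal muscle, was not tested and stood at 0.324 to 0.940 CPM.

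**Figure D3:**
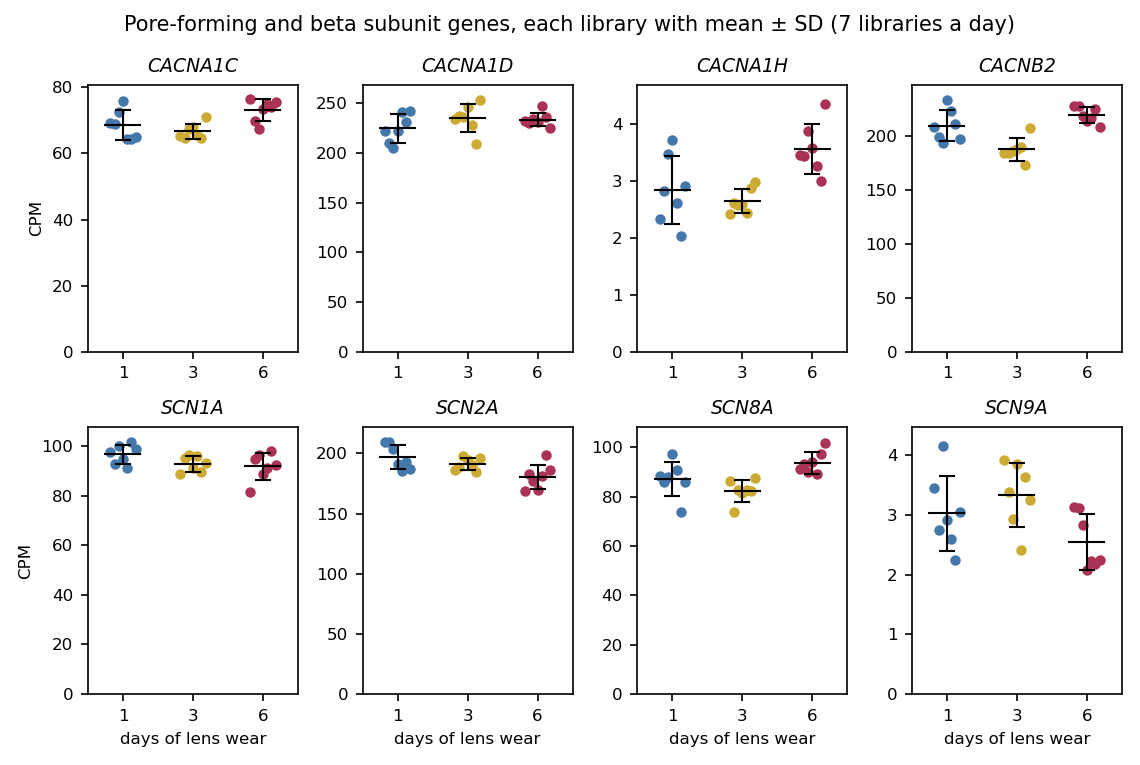
CPM of pore-forming and beta subunit genes in each library (points) with the mean and SD of 7 libraries (lines), by days of lens wear. CACNB2, CACNA1H and SCN8A have their lowest mean on day 3, where their libraries overlap those of day 1, and day 6 libraries above all of day 3, and CACNA1D is level across days.

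Of the CACNG genes, CACNG2 passed the F test over days (adjusted p = 0.0497). It encodes stargazin, which brings AMPA receptors to synapses. It stood at 7.77, 8.69 and 8.94 CPM in the lowest, median and highest day 1 library, at 5.51, 7.37 and 7.92 CPM on day 3 and at 7.33, 7.69 and 9.74 CPM on day 6. On day 3 7 of 7 libraries were under the day 1 mean, but the days overlapped. Pairwise it passed in 0 of 3 comparisons, with -0.21 ± 0.07 between 3 and 1 days and 0.16 ± 0.07 between 6 and 3 days (adjusted p = 0.0971 and 0.0928).

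The related AMPA receptor partners CACNG3 and CACNG4 ranged from 1.86 to 3.25 CPM and from 4.57 to 6.54 CPM, and were not called by CPM. CACNG4 was lower on day 6 after median-of-ratios scaling, by both comparisons (-0.19 and -0.17 against days 3 and 1, adjusted p = 0.0318 and 0.0458). CACNG5, another member of the family, had 1.86, 2.10 and 2.56 CPM on day 6, against 1.93, 2.83 and 3.75 CPM on day 1. Its change was -0.28 ± 0.12 (adjusted p = 0.0854), -0.34 after median-of-ratios scaling (0.0370), -0.48 against the day 1 libraries of lower code numbers (0.00469) and -0.01 against those of higher numbers (0.976). Within day 1 CACNG5 averaged 2.15 CPM in the libraries of higher numbers and 3.39 CPM in those of lower numbers (-0.48, adjusted p = 0.00917). Within day 3 the split ran the other way, with 2.91 and 1.91 CPM, and was not called by limma (0.42, unadjusted p = 0.000649, adjusted p = 0.189). CACNG7 was not tested and reached 0.259 CPM at most.

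Among sodium channel pore genes, SCN8A rose and SCN2A fell by CPM, in different comparisons. SCN8A encodes the pore that carries the initiation of spikes in the mature axon of many mammalian neurons. It stood at 89.0, 93.1 and 102 CPM in the lowest, median and highest day 6 library, against 73.6, 82.5 and 87.6 CPM on day 3, without overlap. Its change was 0.18 ± 0.05 (adjusted p = 0.0192), a fold of 1.14, and 0.10 after median-of-ratios scaling (0.162). Day 1 libraries, at 73.7 to 97.1 CPM, overlapped both. SCN2A, the pore common in immature and unmyelinated axons of mammals, stood at 169, 181 and 198 CPM on day 6, against 185, 193 and 210 CPM on day 1. It fell by 0.13 on the log2 scale (SE 0.05, adjusted p = 0.0470), a call that ended on leaving out any 1 of 16 libraries (adjusted p up to 0.0975) and against the day 1 libraries of higher code numbers alone (-0.06, 0.462). After median-of-ratios scaling SCN2A fell against day 1 (-0.21, adjusted p = 0.00393) and against day 3 (-0.17, 0.0178).

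SCN8A over SCN2A sets a gene that rose by CPM over one that fell, so a higher ratio on day 6 follows from that choice. The ratio is a description and no separate support for either call. It was 0.383, 0.432 and 0.507 in the lowest, median and highest day 1 library. On day 3 it was 0.390, 0.434 and 0.465, and on day 6 it was 0.491, 0.509 and 0.554. Day 6 lay above all of day 3, and overlapped day 1 at its upper end, where day 1 replicate 4 was the highest.

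**Figure D4:**
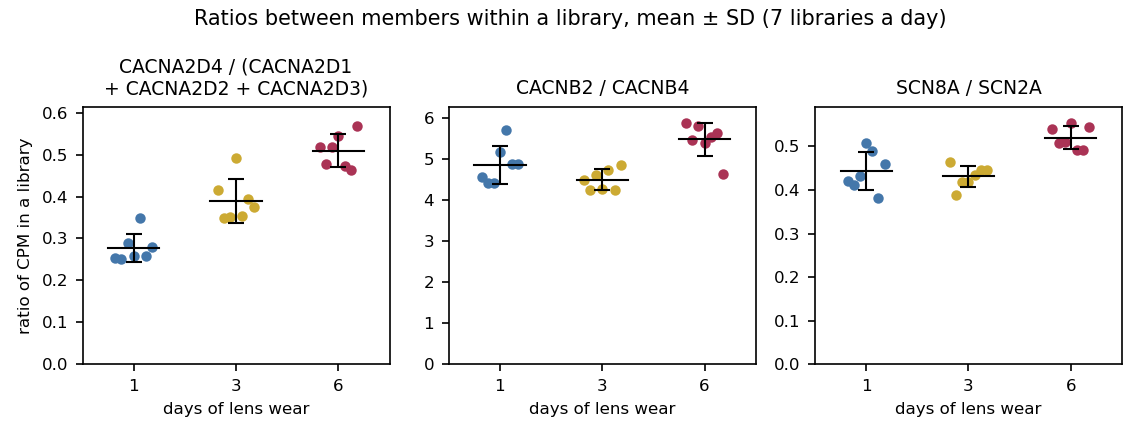
Ratios of CPM between subunit genes in each library (points) with the mean and SD of 7 libraries (lines), by days of lens wear. The ratio of CACNA2D4 to the other alpha-2-delta genes has medians of 0.259, 0.374 and 0.518, and that of SCN8A to SCN2A is 0.491 to 0.554 on day 6, above all of day 3.

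SCN9A, a pore best known from pain fibres, stood at 2.07, 2.25 and 3.14 CPM on day 6, against 2.42, 3.38 and 3.92 CPM on day 3. It fell by 0.29 on the log2 scale (SE 0.10, adjusted p = 0.0410), and by 0.35 after median-of-ratios scaling (0.0208). That call by CPM ended with no filter on low values (0.0625), with the code letter in the fit (0.0522) and on leaving out any 1 of 9 libraries (adjusted p up to 0.0835). Within day 6 SCN9A averaged 2.18 CPM in the libraries of higher code numbers and 3.03 CPM in those of lower numbers. That split was not called by limma (-0.34, unadjusted p = 0.00849, adjusted p = 0.827).

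SCN1A and SCN3A, pores of inhibitory and of developing neurons in mammals, ranged from 81.4 to 102 CPM and from 92.5 to 113 CPM and were not called by CPM. The 95% intervals of all their changes lay within 0.17 and 0.20 of 0. SCN1A was lower on day 6 than on day 1 after median-of-ratios scaling (-0.16, adjusted p = 0.0347). SCN9A, SCN1A, SCN2A and SCN3A lie together on chromosome 7 between 19484158 and 19969655, with SCN2A and SCN3A 5.92 kb apart on opposite strands. Their changes between 6 and 3 days were -0.29, -0.02, -0.08 and -0.03 in that order. These genes are paralogues of similar sequence, and the sources used here do not say how reads that match several of them were counted, so their values are uncertain to that extent. SCN1A also overlaps LOC107053843 on the same strand, which averaged 18.1, 15.1 and 15.4 CPM on days 1, 3 and 6. SCN11A and SCN4A, pores of sensory neurons and of skeletal muscle, were not tested, with highest libraries of 0.426 and 0.0564 CPM, and SCN4A was at 0 in 11 of 21 libraries. The 6 listed muscle markers summed to 0.560 CPM at most.

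The beta subunit genes of sodium channels were not called in a comparison. SCN3B had 45.3, 50.8 and 55.6 CPM in the lowest, median and highest day 1 library, 43.6, 50.9 and 55.4 CPM on day 3 and 41.2, 50.1 and 54.7 CPM on day 6, and the intervals of its changes lay within 0.16 of 0. SCN2B ranged from 0.472 to 1.55 CPM, with a change of 0.23 ± 0.09 between 6 and 1 days (adjusted p = 0.0723). That change was called without day 6 replicate 2 (0.29, adjusted p = 0.0174), without day 3 replicate 2 (0.0412) and with the libraries of days 1 and 6 alone (0.0488). SCN4B, which lies 2.10 kb from SCN2B on chromosome 24, was not tested and reached 0.645 CPM at most.

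Ganglion cells are the main spiking cells of the retina. Of 8 tested ganglion cell markers 2 rose and 0 fell between 6 and 3 days, where 22.8% of all tested genes were called. In the other comparisons limma called 0 of the 8, beside 3.31% between 3 and 1 days and 24.3% between 6 and 1 days. At an unadjusted p under 0.05 there were 2 and 1 in those comparisons. After median-of-ratios scaling limma called 0 of the 8 in each comparison, beside 3.93%, 16.4% and 17.4% of all tested genes. At an unadjusted p under 0.05 there were then 3, 1 and 1. The summed level of the listed ganglion cell markers was 171 to 200 CPM on day 1, 154 to 213 on day 3 and 163 to 218 on day 6. Of 9 tested amacrine and horizontal cell markers limma called 0 in each comparison by CPM (3, 1 and 3 at an unadjusted p under 0.05). The shares of all tested genes called by CPM were 3.31%, 22.8% and 24.3%, as above. After median-of-ratios scaling 0 of the 9 rose, and 1 and 3 fell on day 6 against days 3 and 1. Of all tested genes 7.88% and 8.93% were called lower there. The part of these cell types in the values above was not tested.

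The spread between libraries of a day was small for the abundant subunit genes. Over the 13 with a mean of at least 40 CPM, the SD within days on the log2 scale had a median of 0.08 and a range of 0.07 to 0.14, beside a median of 0.11 over the 1946 tested genes of such a mean. By CPM 16 of the 25 tested genes passed in no comparison and not in the F test, and for 6 of those all 3 intervals lay within 0.25 of 0. Of the 16, 10 also passed in none after median-of-ratios scaling, and of the 6, CACNA2D3, CACNB4 and SCN1A were then called lower on day 6 than on day 1, as given above.

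**Figure D5:**
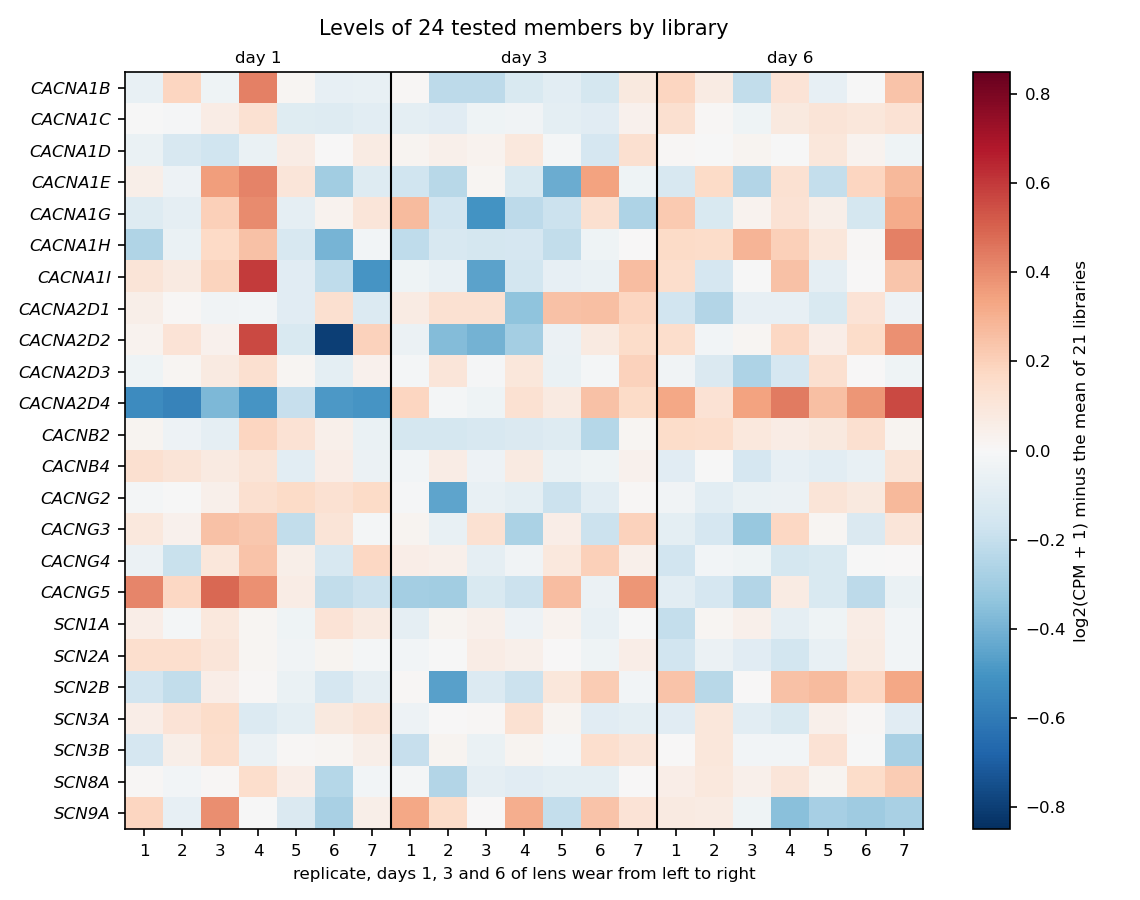
Log2(CPM + 1) of 24 of the 25 tested subunit genes in each of the 21 libraries, less the gene's mean over all libraries (blue lower, red higher), with libraries ordered by day. CACNA2D4 is low in every day 1 library and high in every day 6 library, and several CACNA genes are highest in day 1 replicate 4.

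Genes for proteins that work with these channels, taken from lists chosen with earlier results of these data known, moved in part. Of 20 tested partners of calcium channels, 1 rose and 1 fell between 3 and 1 days, 4 rose and 1 fell between 6 and 3 days, and 4 rose and 1 fell between 6 and 1 days, where 3.31%, 22.8% and 24.3% of all tested genes were called. After median-of-ratios scaling 0 rose and 1 fell, 2 rose and 1 fell, and 3 rose and 2 fell in the same order, beside 3.93%, 16.4% and 17.4% (5 of the 20 had an unadjusted p under 0.05 between 3 and 1 days). Their median changes by CPM were -0.02, 0.07 and 0.07, beside -0.00 (the median over all tested genes), 0.08 and 0.08. CABP4, a calcium-binding protein that tunes the photoreceptor channel, averaged 21.9 ± 2.89 CPM on day 6, against 14.4 ± 3.43 CPM on day 3 and 14.1 ± 3.62 CPM on day 1 (SD, n = 7 each). It rose by 0.60 and 0.63 (adjusted p = 0.00687 and 0.00461), and by 0.52 and 0.54 after median-of-ratios scaling (0.0192 and 0.0136), but its change between 3 and 1 days was 0.03 (0.949), where that of CACNA2D4 was 0.56. RIMS2, a scaffold of release sites, averaged 225 ± 12.4 CPM on day 6, against 190 ± 6.79 CPM on day 1 (0.24, adjusted p = 0.000813). CABP1, a regulator of L-type channels in neurons, averaged 45.4 ± 3.50 CPM on day 6, against 58.2 ± 5.98 CPM on day 1, and fell (-0.35, 0.000546). CACHD1, also among these partners, rose between 6 and 3 days (0.41, adjusted p = 0.000574) and between 6 and 1 days (0.33, 0.00205). After median-of-ratios scaling it rose by 0.33 and 0.24 (adjusted p = 0.00167 and 0.00790). Between 3 and 1 days its change by CPM was -0.08 (0.560).

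Of 14 tested sodium channel partners, 0 rose and 1 fell between 3 and 1 days. Between 6 and 3 days 3 rose and 1 fell, and between 6 and 1 days 3 rose and 3 fell. Of all tested genes 3.31%, 22.8% and 24.3% were called (1.63%, 3.44% and 4.46% lower). After median-of-ratios scaling 0 of the partners rose and 1 fell, 2 rose and 4 fell, and 0 rose and 6 fell. Of all tested genes 3.93%, 16.4% and 17.4% were then called (2.07%, 7.88% and 8.93% lower). At an unadjusted p under 0.05 the 3 comparisons held 4, 8 and 9 of the 14 partners by CPM and 4, 10 and 8 after that scaling. FGF12, an intracellular modulator of sodium channel inactivation, stood at 11.5 to 15.8 CPM on day 1, 9.40 to 12.5 CPM on day 3 and 13.9 to 16.2 CPM on day 6. It fell between 3 and 1 days (-0.26, adjusted p = 0.0398) and rose between 6 and 3 days (0.39, 0.000906). NEDD4L, a ubiquitin ligase that removes sodium channels from the membrane, averaged 28.1 ± 6.47 CPM on day 6, against 43.4 ± 5.33 CPM on day 3 (-0.63, 0.00160). TPCN1 and TPCN2, also among these partners, rose between 6 and 3 days (0.34 and 0.32, adjusted p = 0.002 and 0.0312). After median-of-ratios scaling their changes were 0.26 and 0.24 (adjusted p = 0.021 and 0.155). The sodium leak channel gene NALCN and its partner UNC80 were lower on day 6 than on day 1 (-0.16 and -0.20, adjusted p = 0.0192 and 0.0198), where 3 other partners rose by CPM. Of 14 tested pump, exchanger and release channel genes, 0 rose and 1 fell between 3 and 1 days. Between 6 and 3 days 2 rose and 0 fell, and between 6 and 1 days 1 rose and 3 fell. The shares of all tested genes were 3.31%, 22.8% and 24.3%. After median-of-ratios scaling 0 of these 14 rose and 2 fell, 1 rose and 2 fell, and 1 rose and 4 fell. The shares of all tested genes were then 3.93%, 16.4% and 17.4%. At an unadjusted p under 0.05 there were 2, 5 and 5 of the 14 by CPM and 4, 5 and 8 after that scaling. The calcium pump gene ATP2B2 stood at 345 to 386 CPM on day 6, against 403 to 447 CPM on day 1 (-0.21, 0.00383), and the release channel gene ITPR1 153 ± 3.03 CPM, against 129 ± 7.64 CPM (0.24, 0.000500).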

How the data were processed

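The authors deposited CPM values, read counts scaled to a common library total, for each gene and library. Per the labels' protocols, libraries came from total RNA depleted of ribosomal RNA with a stranded kit, and the tools named per the submitters' processing notes are STAR and Partek, and the build is GRCg6a. Versions, counting and strand settings were not given. Each value carried 0.0001, which was subtracted. Listed genes summed to 30.7 to 31.2% of that total on day 1, 30.3 to 32.2% on day 3 and 31.7 to 33.3% on day 6. The commonest low value was taken as 1 read, and 94.2 to 94.8% of low values were whole multiples of it within 0.1, so no count test was run.

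Tests used limma 3.58.1 in R 4.3.3 on log2(CPM + 1), with all 21 libraries in 1 fit of 1 mean per day (18 residual degrees of freedom) over the 11072 genes whose mean reached 1 CPM, adjusted by Benjamini-Hochberg over all of them. Folds are on that scale, which understates the change of low genes. In simulated data for days 3 and 1, 58, 92, 94 and 98% of 50 genes changed 1.25, 1.5, 2 and 3-fold were recovered among 11014 genes. For days 6 and 3 these shares were 52, 84, 96 and 92%, and for days 6 and 1 they were 56, 88, 94 and 96%. The simulation drew each gene independently, without shifts of whole libraries, and held no changed genes of a fold under 1.25. With 50 genes changed at each fold, the share changed in all was smaller than the 22.8% and 24.3% called in the comparisons with day 6. The recovered shares therefore need not hold for those comparisons. Alternatives were median-of-ratios scaling, 2 pseudocounts, 2 filters, a variance trend, covariates, parts of day 1, and each library left out. Chromosome numbers are those most genes of a chromosome have in RefSeq's GRCg7b table, and 2 genes were given none. Gene lengths were not used, so levels of different genes are not compared. Subunit genes that passed a test are given by day, the rest by range. Members and lists were chosen with earlier results of these data known. Figures were drawn with matplotlib 3.10.9. Values of 1 tested subunit gene and of 1 marker are not reported here, though both stand in the counts.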

Additional observations from a re-analysis of the deposited data

Results flagged for a closer look

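In 7 of 93 groups of 7 libraries (31 genes on 3 days) the highest or lowest library stood far from the others, where chance gives about 1 in 20. CACNA2D1 was at 134 CPM in day 3 replicate 4, below the other day 3 libraries at 179 to 204 CPM. SCN8A was at 73.6 CPM in day 3 replicate 2, below the others at 81.7 to 87.6 CPM. SCN3B was at 41.2 CPM in day 6 replicate 7, below the others at 49.2 to 54.7 CPM. The remaining 4 concern genes under 1 CPM. CACNA1S was at 0.822 CPM in day 6 replicate 6, above the others at 0.425 to 0.539 CPM. CACNB1 was at 0.940 CPM in day 3 replicate 6, above the others at 0.324 to 0.486 CPM, and at 0.343 CPM in day 6 replicate 1, below the others at 0.556 to 0.676 CPM. SCN4A was at 0.0564 CPM in day 3 replicate 1, against 0 to 0.0242 CPM in the others, a difference of about 1 read.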

How the results depend on the processing

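No paired analysis was run, since each of the 21 libraries carries its own code number in the labels and no number is shared between days. Between 3 and 1 days the count of called genes was 1, and 2 with a variance trend or with the day 1 libraries of lower code numbers alone. Between 6 and 1 days it was 3, and 7 after median-of-ratios scaling. Combined settings added after seeing the data joined median-of-ratios scaling with HINTW in the fit, with the lower or with the higher code numbers of day 1 alone. They gave 2, 2 and 2 genes between 3 and 1 days and 9, 5 and 1 between 6 and 1 days. Leaving out 1 library gave 1 to 2 genes between 3 and 1 days (2 without day 3 replicate 7), 4 to 7 between 6 and 3 days, 1 to 4 between 6 and 1 days and 3 to 6 in the F test (3 without day 3 replicate 2 or 3 or day 6 replicate 4). Over 75 changes of single genes and 2682 alternative values, 85 lost and 48 gained a call, and 0 changes with a call turned sign. Only CACNA2D4 (3 against 1 and 6 against 1 days) and CACNA1H (6 against 3 days, not tested at a minimum mean of 5 CPM) kept a call under every alternative run, among the 11 called changes. The planned order of levels between genes was not run, since no gene lengths were at hand. The causes of these shifts were not tested. At about 31 to 49 reads per CPM, genes near 1 CPM rest on few reads, and their intervals are wide.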

Other observations

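Of the 25 tested genes, 5 had their highest value of all 21 libraries in day 1 replicate 3 and 5 in day 6 replicate 7. Of all tested genes 5.33% and 13.7% did so. In day 1 replicate 4 there were 7 of the 25, beside 8.53% of all tested genes. The 7 were CACNA1B, CACNA1E, CACNA1G, CACNA1I, CACNA2D2, CACNB2 and CACNG4, among them 4 of the 7 tested alpha-1 genes. Without day 1 replicate 4 the counts of called genes were 1, 7 and 3 in the 3 comparisons, as with it. At the other end, 5 of 25 genes had their lowest value in day 3 replicate 2, beside 9.41% of all tested genes.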
